A study of Homo sapiens with 6 samples.

Results

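Glycolysis turns glucose into pyruvate and lactate in the cytosol, and many cancer cells run it at a high rate even with oxygen present. Hypoxia-inducible factor 1 (HIF-1), whose oxygen-regulated subunit is HIF1A, raises transcription of most of the pathway's genes when oxygen is low, together with targets that act outside glycolysis in angiogenesis, mitophagy and oxygen sensing. Prolyl hydroxylases of the EGLN family mark HIF subunits for VHL-dependent destruction when oxygen is present. The 34 genes described here were taken by name from a list that was chosen with earlier results of these data known. They are 17 enzymes of the path from glucose to lactate, 3 glucose or lactate transporters, 3 regulatory kinases and HIF1A. The other 10 are HIF targets outside glycolysis, here called HIF-only targets. All 34 were found by symbol among the 61552 genes in the files.

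The RNA came from the established cell line NCI-H520, which derives from a human squamous carcinoma of the lung and carries the wild-type label, grown in RPMI-1640 with 15% fetal bovine serum. One group of 3 libraries received PBS, the vehicle control, and the other group of 3 libraries received cisplatin at 2 µM, a platinum compound whose adducts crosslink DNA, both for 48 h. The oxygen level of the cultures is not given in the sources used here, and neither is whether the 3 libraries of a group came from separate cultures, so the p-values measure the spread between these libraries, which may be technical. In bulk RNA, a lower share of cells that express a gene and less of its RNA per cell cannot be told apart.

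Expected counts summed to between 9121180 and 16724285 per library. Mitochondrial genes took 4.15 to 6.05% of counts in PBS and 3.26 to 4.13% in cisplatin, without overlap, and their part in the results was not tested. Among 8 squamous lung markers 4 had enough counts to test and none of these was called; SOX2, a lineage factor of this carcinoma, stood at 281 to 327 CPM (counts scaled to the library's size) in PBS and 302 to 353 CPM in cisplatin, whereas TP63 had 0 to 3 counts per library and DSG3 had 0 counts in all 6 (a count of 0 allows up to 3 counts, or 0.180 to 0.335 CPM, per library). Of the markers of other cell types, NKX2-1 (1 of 4 lung adenocarcinoma markers), COL1A1 (1 of 7 fibroblast markers) and LYZ (1 of 5 leukocyte markers) were called higher in cisplatin. The summed level of the adenocarcinoma markers was 3.46 to 4.67 CPM in PBS and 7.22 to 7.57 CPM in cisplatin, that of the fibroblast markers 11.2 to 16.0 CPM and 23.3 to 25.0 CPM, and that of the leukocyte markers 0.670 to 1.32 CPM and 3.30 to 4.09 CPM. Most of each sum was the called gene alone. NKX2-1 was at 3.35 to 4.54 CPM in PBS and 7.13 to 7.37 CPM in cisplatin. COL1A1 was at 9.93 to 14.5 CPM and 21.8 to 22.9 CPM, and LYZ at 0.670 to 1.12 CPM and 3.30 to 4.09 CPM. The defining markers PTPRC, CD3E and COL3A1 had 0 counts in all 6 libraries. The 4 endothelial markers summed to 1.45 to 2.44 CPM in PBS and 1.20 to 2.32 CPM in cisplatin, with none called. The part of these genes in the results below was not tested.

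Cisplatin did not move the 34 genes in 1 direction. Of the 32 with enough counts to test, 7 rose, 6 fell and 19 were not called at an adjusted p under 0.05 (edgeR quasi-likelihood test, Benjamini-Hochberg adjustment over all 15063 tested genes). All 3 transporters rose (SLC2A1, SLC2A3, SLC16A3), as did the aldolase ALDOA and the HIF-only targets BNIP3L, ANKRD37 and NDRG1. The call of SLC2A3 was lost when counts of its pseudogenes were added (edgeR adjusted p = 0.857). Those of SLC2A1 and SLC16A3 were lost in limma on log2(TPM + 1) (adjusted p = 0.656 and 0.313). The hexokinase HK2, the phosphofructokinase PFKP, the lactate dehydrogenase LDHA, the kinase PDK1, the angiogenic ligand VEGFA and the collagen hydroxylase P4HA1 fell. The called share of 40.6% of the 32 lay near the 38.2% called among all tested genes, of which 18.9% were higher and 19.3% lower. The median log2 fold change of the 32 was 0.02, beside -0.000347 over all tested genes. CPM values of the groups did not overlap for 17 of the 32, 10 higher and 7 lower in cisplatin, beside 25.2% higher and 24.5% lower (49.7% together) of all tested genes. Only SLC16A3 among the called members changed by more than 2-fold. On the TPM scale (values also scaled to transcript length), limma called 5 of the 32, 3 higher and 2 lower, beside 19.0% of all tested genes (8.02% higher, 11.0% lower). The 2 members left out for low counts were CA9 and EGLN3.

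**Figure D1:**
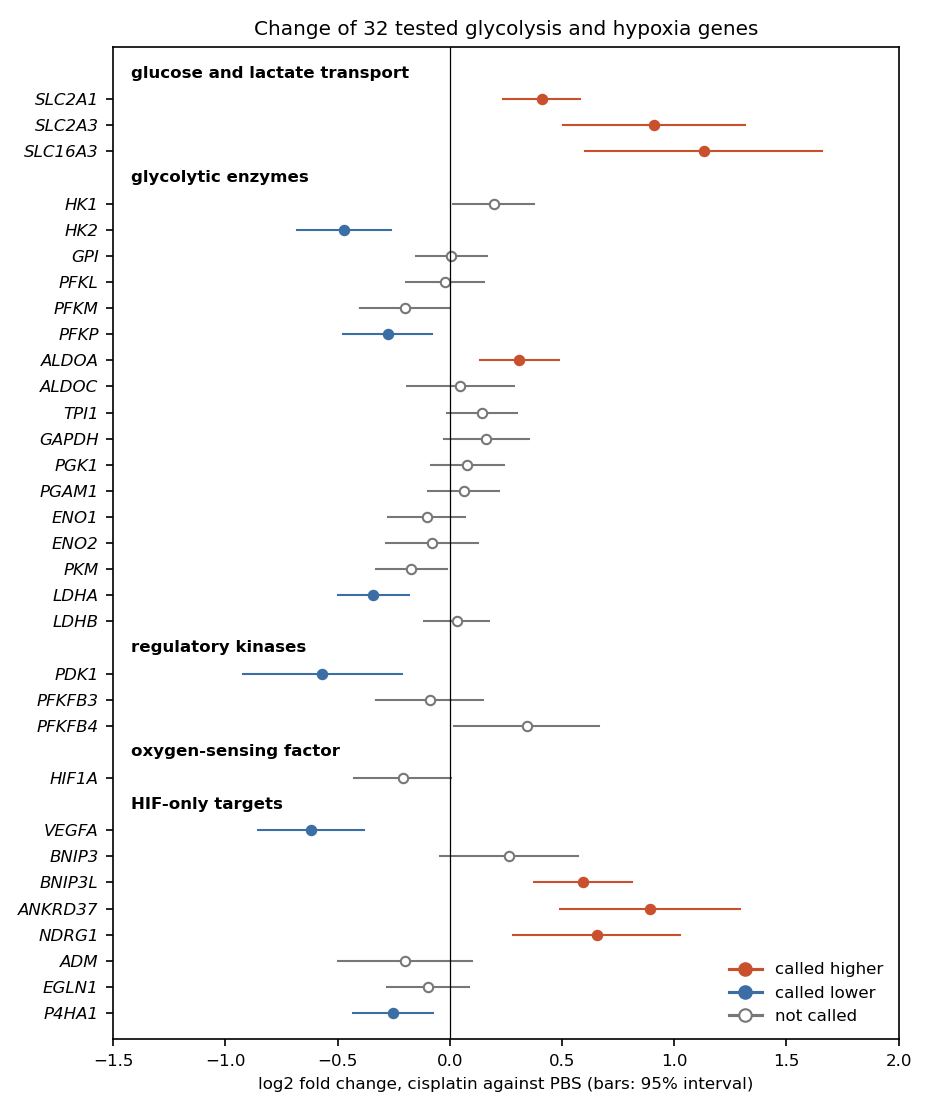
Log2 fold change (cisplatin minus PBS) of each of the 32 tested genes with its 95% interval, grouped by role, from edgeR's quasi-likelihood fit to 3 libraries per group; coloured points passed an adjusted p of 0.05. The 7 genes called higher include all 3 transporters, and most glycolytic enzymes lie near 0.

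Of the transporters, SLC2A1 and SLC2A3 carry glucose at the start of the path, and SLC16A3 carries lactate after its end. SLC2A1 (GLUT1, the widely expressed glucose uniporter; GRCh38 chr1:42925375-42959176, minus strand) stood at 253, 232 and 280.1 CPM in PBS and at 348, 336 and 332 CPM in cisplatin. The groups did not overlap, and the mean went from 255 ± 24.0 to 339 ± 8.13 CPM (SD, n = 3 each). The log2 fold change was 0.41 ± 0.08 (SE), a 1.33-fold rise (95% interval 1.18 to 1.50, edgeR adjusted p = 0.00186). On the TPM scale the groups overlapped: SLC2A1 measured 169 ± 44.8 TPM (abundance scaled to transcript length and library size) in PBS and 178 ± 4.60 TPM in cisplatin. The overlap came from PBS replicate 3 at 219 TPM, with the other PBS libraries at 152 and 134 TPM and the cisplatin libraries at 175 to 183 TPM. The effective length assigned to the gene was 1535 to 1771 bases in PBS and 1829 to 2074 bases in cisplatin, longer in every treated library. In limma on log2(TPM + 1) the log2 fold change was 0.11 with an adjusted p of 0.656, the highest of 14 alternative settings, of which the lowest was 1e-05. With offsets fitted to each gene's mean effective length over all libraries, the call held (log2 0.35, edgeR adjusted p = 0.00271). Those offsets did not use the length assigned in each library. They therefore cannot show what part the longer lengths in cisplatin played, which was not tested.

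SLC16A3 (MCT4, the lactate exporter of highly glycolytic cells; chr17:82228397-82261129, plus strand) was rare, with 1.12, 1.97 and 1.60 CPM in PBS and 3.79, 3.12 and 3.73 CPM in cisplatin. These rested on 10, 30 and 23 counts against 38, 35 and 62. Every cisplatin library lay above every PBS library, with means of 1.56 ± 0.430 and 3.54 ± 0.370 CPM. The 2.19-fold rise (1.52 to 3.16; log2 1.13 ± 0.24) passed the test in edgeR (adjusted p = 0.00343). On the TPM scale the groups overlapped, at 1.23 ± 0.709 and 1.80 ± 0.495 TPM, and limma on log2(TPM + 1) gave a log2 fold change of 0.37 with an adjusted p of 0.313, the highest over 13 alternatives whose lowest was 0.00015. CSNK1D on the other strand shares 5.36% of SLC16A3's exonic bases. It held 5827 counts in PBS and 5943 in cisplatin, against 63 and 135 for SLC16A3, and was not called (log2 0.05, edgeR adjusted p = 0.617).

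SLC2A3 (GLUT3, a high-affinity glucose transporter; chr12:7919230-7936275, minus strand) had 3.01, 2.37 and 2.65 CPM in PBS and 5.38, 4.72 and 4.87 CPM in cisplatin. The groups were apart, at 2.68 ± 0.325 and 4.99 ± 0.347 CPM, a 1.88-fold rise (1.42 to 2.49; log2 0.91 ± 0.19, edgeR adjusted p = 0.00257). Its value is uncertain, since the counting could split its reads with near-identical pseudogene copies. The pseudogene SLC2A3P1 carried 28.71 expected counts in PBS replicate 1 and 26.38 in PBS replicate 3, and 0 in the other 4 libraries. SLC2A3P4 carried 13, 15 and 7 counts in PBS and 2, 7 and 7 in cisplatin. The pseudogenes together held 92.09 counts in PBS, 91.2% of the parent's 101, but 17 counts in cisplatin, 9.04% of the parent's 188. With parent and pseudogenes summed, the libraries held 7.67, 3.35 and 5.12 CPM in PBS and 5.68, 5.34 and 5.29 CPM in cisplatin, so the groups overlapped. The fit to these sums gave a log2 fold change of 0.06 and edgeR's adjusted p was 0.857, against 0.000379 to 0.857 over the 14 alternatives.

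**Figure D2:**
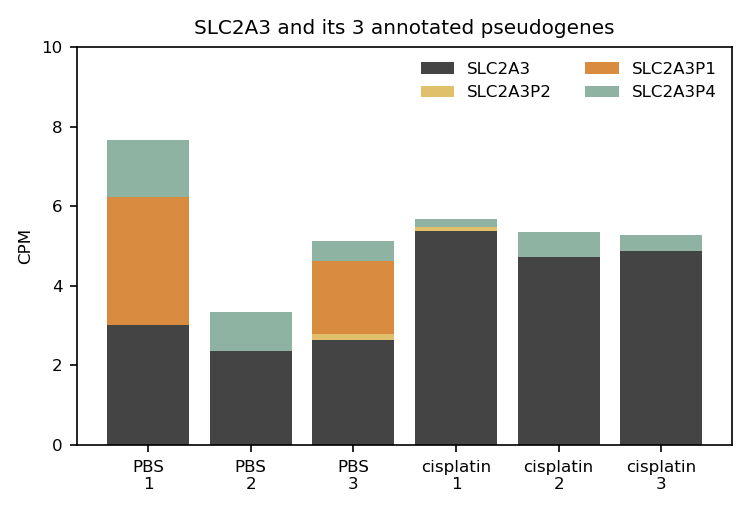
Stacked bars of CPM for SLC2A3 and its 3 annotated pseudogenes in each of the 6 libraries, so that the full bar is their sum. SLC2A3 alone separates the groups, at 2.37 to 3.01 CPM in PBS and 4.72 to 5.38 CPM in cisplatin, whereas the sums of 3.35 to 7.67 CPM in PBS enclose the 5.29 to 5.68 CPM of the cisplatin libraries.

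Of the 17 enzymes, 1 rose, 3 fell and 13 were not called, a called share of 23.5% beside the 38.2% of all tested genes, with a median log2 fold change of 0.01. HK2, the inducible mitochondria-bound hexokinase that phosphorylates glucose at entry (chr2:74833981-74893359, plus strand), measured 149, 138 and 181 CPM in PBS and 117, 113 and 107 CPM in cisplatin. All 3 cisplatin libraries were below all PBS libraries, with a 1.39-fold drop from 156 ± 22.7 to 113 ± 4.90 CPM (-0.47 ± 0.10 on the log2 scale, edgeR adjusted p = 0.00263). Over the 14 alternatives the adjusted p lay between 2e-06 and 0.0516, the latter in limma on log2(TPM + 1). HK2 is long, with a mean effective length of 5217 bases. With counts adjusted for length by offsets, its log2 fold change was smaller, at -0.26 (edgeR adjusted p = 0.0353). HK1, the constitutive hexokinase, was at 115 to 140.4 CPM in PBS and 147 to 152 CPM in cisplatin, apart but not called (log2 0.20 ± 0.08, edgeR adjusted p = 0.0827). PFKP, the platelet-type phosphofructokinase of the committing step (chr10:3066333-3137712, plus strand), stood at 48.7, 45.5 and 55.4 CPM in PBS and 40.0, 41.6 and 41.9 CPM in cisplatin. Its groups were apart and it changed by -0.28 ± 0.09 on the log2 scale (edgeR adjusted p = 0.0300), but the call was lost on the TPM scale (0.133 in limma) and without any 1 library other than PBS replicate 2 (edgeR adjusted p 0.0522 to 0.119).

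ALDOA, the aldolase that splits fructose bisphosphate (chr16:30064164-30070457, plus strand), was the enzyme that rose. It measured 1075, 969.5 and 889.9 CPM in PBS and 1197, 1229.6 and 1208 CPM in cisplatin. The cisplatin libraries lay close together and above the PBS libraries. The mean rose to 1212 ± 16.5 CPM from 978 ± 92.8 CPM (log2 0.31 ± 0.08, 1.24-fold, 1.10 to 1.40, edgeR adjusted p = 0.0100). When counts were adjusted for transcript length the log2 fold change was 0.15 and edgeR's adjusted p 0.106, the highest of 14 alternatives whose lowest was 0.000557. A read-through gene, AC093512.2, covers 42.3% of ALDOA's exonic bases and held 1985 counts in PBS and 2188 in cisplatin, against ALDOA's 37131 and 45926. The strand setting of the counting is not given in the sources used here, and reads in shared bases could have been split between such genes.

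LDHA, the lactate dehydrogenase subunit that favours lactate production (chr11:18394388-18408425, plus strand), fell at the end of the path. Its levels were 994, 1021 and 948 CPM in PBS and 818, 783 and 739 CPM in cisplatin, so even the lowest PBS library stood above every treated one. The mean dropped from 988 ± 36.7 to 780.0 ± 39.5 CPM, 1.27-fold (log2 fold change -0.34 ± 0.07, ratio 0.790, 0.708 to 0.881, edgeR adjusted p = 0.00330). LDHA and BNIP3L were the only 2 of the 13 called members whose call held under all 14 alternatives tried, LDHA with adjusted p values up to 0.0207. Its partner subunit LDHB was at 259 to 269.9 CPM in PBS and 264 to 278 CPM in cisplatin (log2 0.03, edgeR adjusted p = 0.742).

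The steps between these enzymes showed smaller values, none of them called. PKM, the pyruvate kinase that makes the last ATP of the path, lay at 2415 to 2638 CPM in PBS and 2203 to 2254 CPM in cisplatin, apart and lower (log2 fold change -0.17 ± 0.07, edgeR adjusted p = 0.0806, 0.0196 to 0.227 over the alternatives). GAPDH, the dehydrogenase often used as a reference gene, was at 5514, 5181 and 4571 CPM in PBS and 5710, 5921 and 5454 CPM in cisplatin, overlapping (log2 0.16 ± 0.09, edgeR adjusted p = 0.158). TPI1, which interconverts the triose phosphates, lay at 634 to 704 CPM in PBS and 732 to 757 CPM in cisplatin (log2 0.14, edgeR adjusted p = 0.131). For PFKM, the muscle-type phosphofructokinase, the values were -0.20 on the log2 scale and 0.107, with 8.58% of exonic bases shared with SENP1 on the other strand, which fell (-0.33), and for ENO1, the main enolase, -0.10 and 0.322. The remaining uncalled enzymes (GPI, PFKL, ALDOC, PGK1, PGAM1, ENO2) had log2 fold changes between -0.08 and 0.08, with adjusted p values between 0.441 and 0.949.

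**Figure D3:**
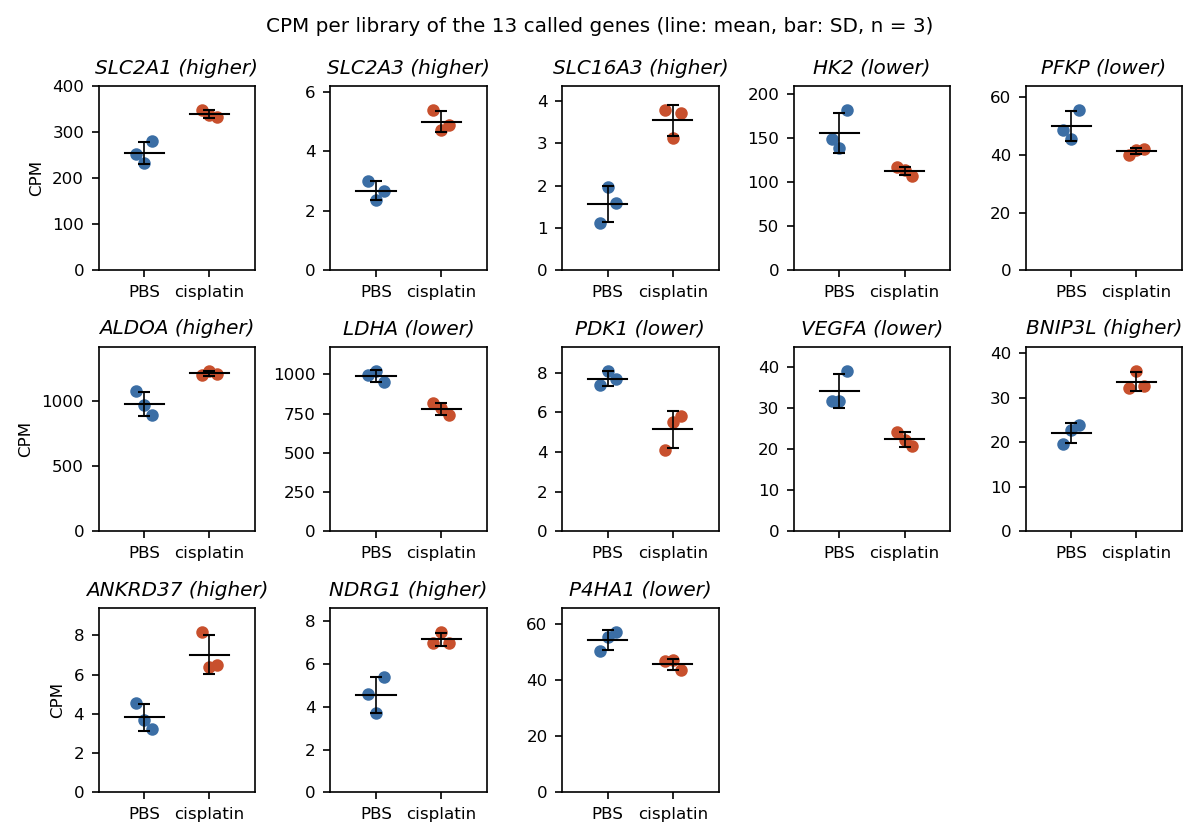
CPM in each of the 6 libraries for the 13 called genes, PBS and cisplatin side by side, with each group's mean and SD (n = 3). In every panel the PBS and cisplatin points are apart, and the drop of LDHA runs from 988 ± 36.7 to 780.0 ± 39.5 CPM.

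Per length, the path was led by GAPDH at 5970 ± 190.1 TPM in PBS, followed by ENO1 at 1724 ± 129.5, PKM at 1422 ± 143, ALDOA at 1021 ± 34.7, TPI1 at 760.1 ± 47.7 and LDHA at 649 ± 33.1 TPM. Each of these lay further from the next in the order than the larger of the SDs of the pair. GPI (359 ± 55.4 TPM), PGK1 (307 ± 40.0 TPM) and LDHB (301 ± 23.0 TPM) came next and did not differ from their neighbours among the 3 beyond that spread. SLC2A1 at 169 TPM was the abundant glucose transporter, with SLC2A3 at 0.840 ± 0.122 TPM and SLC16A3 at 1.23 TPM near the bottom. The 17 enzymes summed to 13283, 12450 and 13432 TPM in PBS and 13105, 13255 and 12350 TPM in cisplatin. These sums overlapped, at 13055 ± 530 and 12903 ± 485 TPM. The 10 HIF-only targets summed to 107, 99.7 and 122 TPM in PBS and 109, 104 and 101 TPM in cisplatin, also overlapping.

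**Figure D4:**
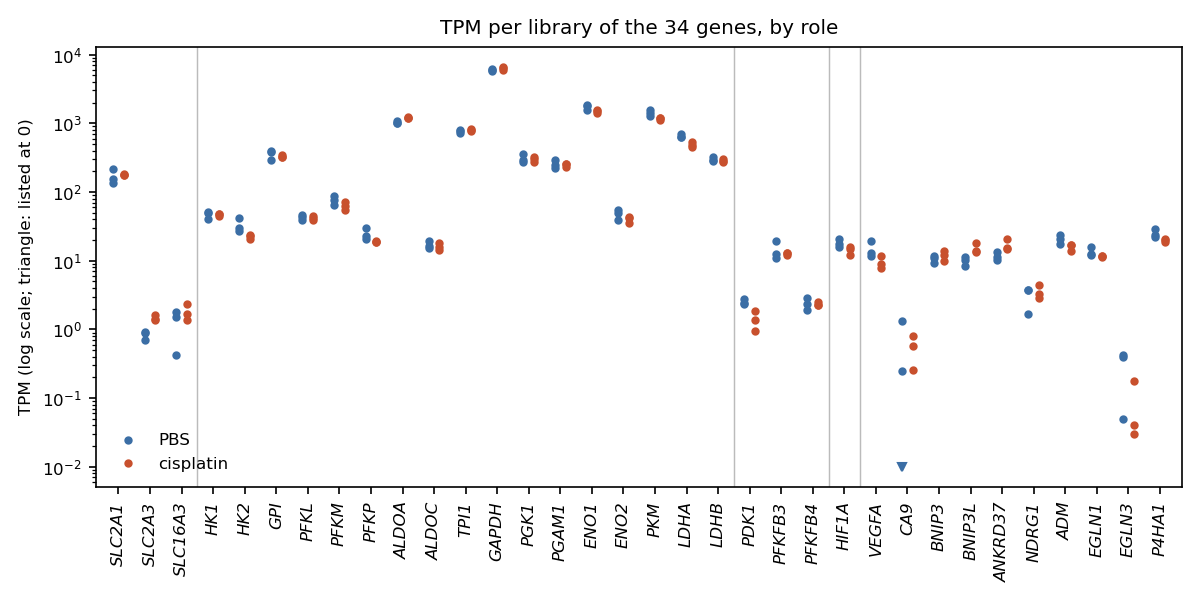
Level of each listed gene in TPM (log axis) in PBS and cisplatin libraries, ordered by role; points are libraries and the triangle marks CA9, listed at 0 in 1 PBS library. GAPDH leads at 5970 TPM in PBS and SLC2A3 lies at 0.840 TPM, and the difference between genes is far wider than that between treatments.

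Where 2 or 3 isoenzymes serve 1 step, each one's share of their summed TPM was computed per library. HK2 made up 37.5, 40.1 and 44.5% of HK1 plus HK2 in PBS and 32.4, 32.3 and 31.5% in cisplatin. LDHB made up 31.9, 30.9 and 32.3% of the lactate dehydrogenase subunits in PBS and 35.3, 37.7 and 38.1% in cisplatin. The share of PFKL, the liver-type phosphofructokinase, was 30.3, 31.0 and 28.0% in PBS and 33.2, 32.6 and 36.2% in cisplatin. The groups were apart for these shares and for those of SLC2A3 and BNIP3L, 5 of 11 shares computed. For BNIP3L they were barely apart, with 48.0, 48.2 and 49.5% of BNIP3 plus BNIP3L in PBS and 64.7, 49.6 and 52.3% in cisplatin, and the difference of 6.93 percentage points was 2.34 without cisplatin replicate 1. With 3 against 3 libraries, the two-sided exact permutation test cannot go below p = 0.1, the value each of the 5 reached (0.22 after adjustment over the 11 shares), so none passes 0.05. The other shares (PFKM, PFKP, ALDOC, ENO2, PFKFB4, EGLN3) overlapped.

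Among the 3 regulatory kinases, PDK1 fell. PDK1 (chr2:172555373-172608669, plus strand) phosphorylates and inhibits pyruvate dehydrogenase. It stood at 7.37, 8.09 and 7.67 CPM in PBS and 4.09, 5.52 and 5.83 CPM in cisplatin, and the groups were apart. The mean dropped 1.48-fold, to 5.15 ± 0.931 CPM from 7.71 ± 0.361 CPM, and the change of -0.57 ± 0.16 on the log2 scale passed at an adjusted p of 0.0161 (edgeR). Cisplatin replicate 1 was the lowest library, and without it the log2 fold change was -0.44 with an edgeR adjusted p of 0.0684, against 0.0104 to 0.0684 over the 14 alternatives. PFKFB3 and PFKFB4 set the level of fructose 2,6-bisphosphate, the activator of phosphofructokinase. PFKFB4 lay at 5.13 to 6.07 CPM in PBS and 6.77 to 7.67 CPM in cisplatin, apart but not called (log2 0.34 ± 0.15, edgeR adjusted p = 0.0876). PFKFB3 overlapped between the groups (log2 fold change -0.09, edgeR adjusted p = 0.547).

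HIF1A itself was at 52.3, 58.7 and 60.5 CPM in PBS and 49.7, 55.5 and 43.8 CPM in cisplatin. The groups overlapped and the gene was not called (log2 fold change -0.21 ± 0.10, edgeR adjusted p = 0.113). HIF1A is controlled mainly through the stability of its protein, which RNA counts do not measure.

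The HIF-only targets went both ways: of 8 tested, 3 rose, 2 fell and 3 were not called, a called share of 62.5% beside the 38.2% of all tested genes, with a median log2 fold change of 0.08. VEGFA, the ligand that drives angiogenesis (chr6:43770184-43786487, plus strand), stood at 31.8, 31.8 and 39.1 CPM in PBS and 24.3, 22.2 and 20.8 CPM in cisplatin. All treated libraries were below all controls, and the mean fell 1.53-fold from 34.2 ± 4.23 to 22.4 ± 1.75 CPM (-0.62 ± 0.11 on the log2 scale, edgeR adjusted p = 0.00105). On the TPM scale the groups overlapped, at 11.53 to 19.48 TPM in PBS and 7.84 to 11.58 TPM in cisplatin. VEGFA there had a log2 fold change of -0.57 with an adjusted p of 0.0836 in limma, the highest of 14 alternatives whose lowest was 1e-06. P4HA1, a catalytic subunit of the hydroxylase that modifies prolines in collagen (chr10:73007217-73096974, minus strand), measured 50.5, 55.4 and 57.2 CPM in PBS and 46.7, 47.0 and 43.5 CPM in cisplatin. The groups were apart, but its log2 fold change of -0.25 ± 0.08 passed narrowly (edgeR adjusted p = 0.0299). The call was lost under 8 of the 14 alternatives, among them DESeq2 (adjusted p = 0.0521), the fit without the low-count filter (0.0592), limma on TPM (0.119) and every left-out library except PBS replicate 1 (0.0617 to 0.120).

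BNIP3L (NIX, a mitophagy receptor on the outer mitochondrial membrane; chr8:26382898-26505636, plus strand) measured 19.7, 22.8 and 24.0 CPM in PBS and 32.2, 36.0 and 32.6 CPM in cisplatin. The groups lay well apart, with means of 22.2 ± 2.24 and 33.6 ± 2.08 CPM and a 1.51-fold rise (1.30 to 1.75; log2 0.59 ± 0.10, edgeR adjusted p = 0.000820), and the call held under all 14 alternatives with adjusted p values up to 0.0472. PNMA2 on the other strand shares 7.66% of BNIP3L's exonic bases and was itself called higher, with 37 counts in PBS and 126 in cisplatin against 867 and 1270 for BNIP3L (log2 1.76, edgeR adjusted p = 0.00198). Its relative BNIP3 was at 11.1 to 13.0 CPM in PBS and 11.7 to 16.7 CPM in cisplatin, overlapping (log2 0.27 ± 0.14, edgeR adjusted p = 0.159); its pseudogenes held 9.30% of the parent's counts in PBS and 5.44% in cisplatin. ANKRD37, an ankyrin-repeat protein known as a HIF-1 target (chr4:185396021-185400628, plus strand), stood at 4.58, 3.68 and 3.21 CPM in PBS and 8.17, 6.41 and 6.49 CPM in cisplatin. The 1.86-fold rise (1.41 to 2.45; log2 0.89 ± 0.18) had an edgeR adjusted p of 0.00268, and limma on log2(TPM + 1) gave 0.49 and 0.0640, the highest of 14 alternatives whose lowest was 4.8e-05. UFSP2 on the other strand shares 35.2% of ANKRD37's exonic bases; it held 782 counts in PBS and 846 in cisplatin against 143 and 262 for ANKRD37, and was not called (log2 0.13, edgeR adjusted p = 0.336).

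NDRG1, a stress-responsive gene induced by hypoxia (chr8:133237171-133302022, minus strand), measured 4.58, 3.68 and 5.37 CPM in PBS and 6.98, 7.48 and 6.97 CPM in cisplatin. The groups were apart (1.57-fold, 1.22 to 2.04; log2 0.65 ± 0.17, edgeR adjusted p = 0.0103). On the TPM scale they overlapped, and limma gave a log2 fold change of 0.19 with an adjusted p of 0.621, against 0.00317 to 0.621 over the alternatives. ADM, which encodes the vasodilator peptide adrenomedullin, was not called (log2 fold change -0.20, edgeR adjusted p = 0.270), nor was the oxygen sensor EGLN1 (-0.10, 0.382). CA9, the cell-surface carbonic anhydrase widely used as a hypoxia marker, had 6, 0 and 2 counts in PBS and 2, 1 and 7 in cisplatin, and shares 38.5% of its exonic bases with ARHGEF39 on the other strand. EGLN3, a prolyl hydroxylase that HIF induces, had 1, 5 and 5 counts in PBS and 1, 3 and 1 in cisplatin. At these counts no difference was detectable for either gene.

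The enzymes and the HIF-only targets were thus called at 4 of 17 and 5 of 8 tested genes, with median log2 fold changes of 0.01 and 0.08. This difference in called share was not tested, because the genes were listed with earlier results known and are not replicates. Both groups held members in each direction. The summed TPM ratio of cisplatin to PBS was 0.988 for the enzymes and 0.954 for the HIF-only targets.

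HIF binds DNA at short core motifs. RefSeq promoters (GRCh38.p14) of 30 of the 34 genes were searched over the 250 bases before the start for ACGTG and GCGTG on both strands; a palindromic CACGTG holds ACGTG on each strand and counts as 2 matches. SLC2A3, VEGFA, BNIP3L and NDRG1 had no entry. Only the first entry of each gene was searched, so matches near any other start are not counted. For 27 of the 30 genes, bases just after the start lay in an annotated transcript of the gene. Of the 30, 19 held at least 1 match and 6 held 3 or more (HK2, ALDOC, PGK1, LDHA, BNIP3, ANKRD37), beside 43.1% and 7.89% of all 27305 promoters searched. Matches were present in 2 of 4 genes called higher, 3 of 5 called lower and 13 of 19 not called. Promoters of 4 called genes, 2 that rose and 2 that fell, are shown 5′ to 3′ on the plus strand with the matches in capitals, ALDOA at chr16:30064029-30064278, ANKRD37 at chr4:185396591-185396840, LDHA at chr11:18394313-18394562 and HK2 at chr2:74833877-74834126.
ALDOA: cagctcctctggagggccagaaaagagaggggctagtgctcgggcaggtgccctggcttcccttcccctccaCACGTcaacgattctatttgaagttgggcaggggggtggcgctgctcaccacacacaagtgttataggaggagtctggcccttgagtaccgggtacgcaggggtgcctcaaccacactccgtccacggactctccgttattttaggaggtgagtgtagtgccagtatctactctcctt
ANKRD37: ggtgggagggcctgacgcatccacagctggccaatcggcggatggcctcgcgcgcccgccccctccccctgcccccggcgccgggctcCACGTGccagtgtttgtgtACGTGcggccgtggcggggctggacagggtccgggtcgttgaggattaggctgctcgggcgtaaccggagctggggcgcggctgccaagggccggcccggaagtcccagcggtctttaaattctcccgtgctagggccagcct
LDHA: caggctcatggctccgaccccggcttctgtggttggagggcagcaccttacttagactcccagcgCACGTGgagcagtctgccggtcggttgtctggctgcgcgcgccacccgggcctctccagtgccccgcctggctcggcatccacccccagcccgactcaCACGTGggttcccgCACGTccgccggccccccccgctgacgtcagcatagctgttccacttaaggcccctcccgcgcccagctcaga
HK2: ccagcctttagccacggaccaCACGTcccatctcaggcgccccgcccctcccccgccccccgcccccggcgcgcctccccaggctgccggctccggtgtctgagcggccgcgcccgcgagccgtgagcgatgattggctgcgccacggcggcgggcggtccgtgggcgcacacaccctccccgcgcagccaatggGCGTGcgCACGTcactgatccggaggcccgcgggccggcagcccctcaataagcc
ALDOA, which rose, held 1 match, and ANKRD37, which rose further, held 3, including a CACGTG. LDHA, which fell, held 5, with 2 such palindromes among them, and HK2, which fell, held 3. Promoters with 3 matches or more thus stood before genes of both directions. A match is a stretch of letters and not a measured binding site.

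Transcript length moved with the cisplatin response across all tested genes. In 4 classes of equal size by effective length, the shortest (up to 1203 bases) had a median log2 fold change of 0.19, with 30.4% called higher and 7.33% lower. The longest (3268 bases or more) had a median of -0.22, with 7.06% called higher and 37.8% lower. The median effective length was 1819 bases for the enzymes, 2159 for the HIF-only targets and 2020 over all tested genes. Adjusted for length, 7 of the 32 listed genes were called higher and 9 lower, beside 34.2% of all tested genes in the same fit (16.3% higher, 17.9% lower) and beside 7 and 6 without the adjustment. Of the 17 enzymes 1 was higher and 5 lower, and of the 8 HIF-only targets 3 and 3. ENO1 (log2 fold change -0.21, edgeR adjusted p = 0.0319), PKM (-0.21, 0.0196) and ADM (-0.35, 0.0496) were the genes newly called lower. Among those higher, HK1 gained a call (0.27, 0.0179) and ALDOA lost its own (0.15, 0.106).

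Other genes of the pathway, from lists set beside the 34, were read from the same fit. Among 9 tested of 22 other glycolysis genes, 1 rose and 1 fell, a called share of 22.2% beside 38.2% of all tested genes. These were ENO3, the muscle-type enolase (16.1 to 24.0 CPM, log2 0.58, adjusted p = 0.000859), and SLC16A1 (MCT1, a second lactate carrier; 104 to 81.0 CPM, -0.36, 0.00545). At the entry of pyruvate into mitochondria, 2 of 11 tested genes rose and 4 fell, beside 18.9% and 19.3% of all tested genes. PDK2, a paralog of PDK1 with the same substrate, rose from 9.76 ± 0.811 to 22.4 ± 0.831 CPM (log2 1.21, edgeR adjusted p = 1.75e-05), so both kinases of this pair moved in opposite directions. PDK2 shares 38.6% of its exonic bases with SAMD14, which held 6 and 8 counts. MPC2, a subunit of the mitochondrial pyruvate carrier, rose (0.38), sharing 22.5% of its exonic bases with DCAF6, while the other subunit MPC1, named after its value was seen, fell (-0.38, edgeR adjusted p = 0.00975). The phosphatases PDP2 (-0.56) and PDP1 (-0.34) and the dehydrogenase subunit DLAT (-0.46) fell.

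All 3 tested of 8 gluconeogenesis genes rose, beside 18.9% of all tested genes, and none of the 3 was called on the TPM scale. They had log2 fold changes of 0.61 for PC (pyruvate carboxylase, 10.5% of exonic bases shared with LRFN4), 0.48 for PCK2 (mitochondrial PEP carboxykinase) and 0.31 for G6PC3 (a broadly expressed glucose-6-phosphatase). In the pentose phosphate branch, the lactonase PGLS (0.52) and the transaldolase TALDO1 (0.28) rose and the isomerase RPIA fell (-0.56). None of 12 tested genes of the oxygen-sensing machinery rose and 3 fell, a called share of 25% beside 38.2% of all tested genes. EPAS1, which encodes HIF-2 alpha, was at 164 ± 15.9 CPM in PBS and 93.5 ± 4.37 CPM in cisplatin (-0.81 on the log2 scale, edgeR adjusted p = 3.51e-05), and the coactivators EP300 (-0.83) and CREBBP (-0.64) were the others. The 12 genes had a median effective length of 3275 bases, beside 2020 over all tested genes. EPAS1 (4113 bases), EP300 (6354) and CREBBP (6608) all lay in the longest class above, and the part of length in their falls was not tested. Of 23 tested other HIF targets 7 were called, 30.4% beside 38.2% of all tested genes. Of these, 3 rose, namely the heme oxygenase HMOX1 (0.89), the lysyl hydroxylase PLOD1 (0.75) and P4HA2 (0.29), and 4 fell, led by the glycoprotein hormone STC2 (75.3 to 37.0 CPM, -1.03), the transferrin receptor TFRC (-0.62) and the histone demethylase KDM4C (-0.50).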

How the data were processed

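Per the submitters' processing notes, reads were aligned with STAR 2.7.9 to GRCh38 (hg38). The sources used here give no version of the counting tool, annotation release or strand setting. The authors deposited, per library and gene, expected counts with TPM, FPKM and effective length, per the file headers. The test was edgeR 4.0.16's quasi-likelihood test (R 4.3.3) on the rounded expected counts (TMM; filterByExpr, minimum 10 per library and 15 in total; Benjamini-Hochberg over 15063 genes, called under 0.05). An SE is the size of the log2 fold change over F's square root, and intervals are at 95%. CPM used TMM library sizes.

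Alternatives were DESeq2 1.42.0, its size factors in edgeR (RLE), no count filter, a minimum of 50 counts in 3 libraries, limma 3.58.1 on log2(TPM + 1), a replicate block, length offsets (loess), pseudogene counts added, each library left out and, for isoenzyme shares of TPM, FPKM as deposited by the authors; leaving out libraries for the shares was added after seeing the data. Length adjustment used a loess curve per library on each gene's mean effective length over all libraries, not on the length assigned in that library. Shares were tested with scipy 1.17.1. The fits were tested on simulated data. All 34 genes are named, and from other lists up to 3 called genes per direction with the smallest adjusted p; 1 result of the other lists is not reported here. The 34 genes and all lists were chosen with earlier results of these data known. Symbols came from a gene name table (61399 of 61552 IDs matched) and positions from GENCODE 29. Within groups, counts of library pairs differed beyond sampling noise (chi-square per degree of freedom 2.99 to 20.6), so no library was counted as a copy.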

Additional observations from a re-analysis of the deposited data

How the results depend on the processing

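Over 14 alternatives, no called gene of the 34 changed direction; 2 (LDHA, BNIP3L) kept the call under all of them, and 8 under all but the TPM scale. The largest shift in counts came with limma on log2(TPM + 1): 2861 genes called (1208 higher, 1653 lower) in place of 5752, 5 of the listed genes in place of 13, 2 enzymes in place of 4 and 1 HIF-only target in place of 5; the cause was not tested. Leaving out 1 library at a time gave 4205 to 5283 genes called, 10 to 13 of the listed genes, 3 to 5 enzymes and 4 to 5 HIF-only targets. The minimum of 50 counts left out SLC16A3, which has no value there. With the replicate number as a block, 5819 genes and 13 of the listed genes (7 higher, 6 lower), 4 enzymes and 5 HIF-only targets were called. Deviations of libraries with the same number correlated at 0.0658, 0.123 and -0.0760, and not every library correlated best with its own number. Such weak values from 3 libraries per group cannot decide whether libraries of the same number were handled together. Reversals were confined to genes not called in the main test, and the cause was not tested. On the TPM scale the log2 fold change was -0.111 for GPI, -0.0574 for ALDOC, -0.0443 for PGK1, -0.0311 for PGAM1, -0.0673 for LDHB and -0.0023 for PFKFB4. With length offsets it was -0.0504 for GPI, -0.0856 for ALDOC, -0.0230 for TPI1, -0.0079 for GAPDH, -0.0453 for PGAM1, -0.139 for LDHB, 0.0136 for PFKFB3 and 0.0059 for EGLN1. Over the left-out libraries it ran from -0.0156 to 0.0531 for GPI, -0.0646 to 0.0338 for PFKL, -0.188 to 0.0509 for PFKFB3 and -0.0365 to 0.120 for ALDOC. Without PBS replicate 3, the difference in share was 0.0450 percentage points for ENO2 and -0.903 for PFKFB4, with ranges over the left-out libraries of -0.226 to 0.0450 and -0.903 to 2.80. Depth limited CA9 and EGLN3, which had at most 7 counts in any library.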
